A study of Mus musculus with 40 samples.

Results

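H3K4me3 peaks were compared between oligodendrocyte precursor cells (OPCs) cultured from the telencephalon and from the brainstem of control mice, and the promoters and distal sites with a peak in every culture of one brain region and in no culture of the other are described here. Of 43052 autosomal promoters and distal sites with a peak in at least 1 control culture, 378 had this pattern. They were 24 telencephalon-only promoters, 44 brainstem-only promoters, 74 telencephalon-only distal sites and 236 brainstem-only distal sites. The presence of a peak chose these members, so their pattern in the controls is a description and was not tested.

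OPCs were immunopanned with an antibody against PDGFRa from pooled litters of hGFAP-Cre;K27M crosses (AMGFAP-Cre;K27M in the labels) at postnatal day 5 to 7, were kept in proliferation medium and were collected without differentiation. The control group held 3 telencephalon cultures, numbered 59, 60 and 61, and 2 brainstem cultures, numbered 59 and 61. The labels call the telencephalon tissue cortex, whereas the dissection took the dorsal telencephalon, that is cortex, hippocampus and corpus callosum. The control littermates are labelled only as Control, and the labels give no allele for them. For its single-cell data the paper describes littermate controls that carry the loxP-flanked stop and no Cre. Whether this held for each culture used here is not stated. The K27M littermates, with the same culture numbers in both regions, expressed H3.3 K27M from the H3-3a locus after deletion of a loxP-flanked stop by a Cre driven by the human GFAP promoter, which is active in neural stem and progenitor cells. Tissue was pooled by region and genotype, so a culture is a pool of animals. The K27M cultures were not used to choose the members.

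H3K4me3 is laid down at the starts of active and poised genes, most strongly at CpG-rich promoters, and weaker and narrower H3K4me3 is also found at some enhancers. OPCs look alike across the brain, yet they arise from progenitors that were patterned along the body axis. Homeobox factors such as Emx2 and Otx1 mark the telencephalon, and Hox genes mark the hindbrain, where their repression elsewhere involves the Polycomb mark H3K27me3.

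The sequences under the highest-ranked members of each kind and under the homeobox promoters are shown first, because the results return to them. A member was ranked by its lowest fold enrichment over input in the control cultures of its own region. Each stretch is 300 bases of mm10 around the summit of the strongest control peak, in the orientation of the gene or, for distal sites, of the plus strand. Where that summit lay outside the promoter window, the end of the window nearest to it is shown, which was the case for Emx2, Gm27868, Hoxb2 and Alg2. Capitals mark CpG dinucleotides. The telencephalon-only stretches are Gm14264 (chr2:170662073-170662372, minus strand, 5 CpG), the second start of Emx2 (chr19:59460802-59461101, plus strand, 15 CpG) and a site in an intron of the noncoding gene Gm34304 (chr12:49375404-49375703, plus strand, 5 CpG). The brainstem-only stretches are Gm27868 in the Hoxa cluster (chr6:52160010-52160309, plus strand, 6 CpG), Hoxb2 (chr11:96352331-96352630, plus strand, 4 CpG), Alg2 (chr4:47472471-47472770, minus strand, 2 CpG) and a site in an intron of Nhsl1 (chr10:18463673-18463972, plus strand, 4 CpG).
Gm14264: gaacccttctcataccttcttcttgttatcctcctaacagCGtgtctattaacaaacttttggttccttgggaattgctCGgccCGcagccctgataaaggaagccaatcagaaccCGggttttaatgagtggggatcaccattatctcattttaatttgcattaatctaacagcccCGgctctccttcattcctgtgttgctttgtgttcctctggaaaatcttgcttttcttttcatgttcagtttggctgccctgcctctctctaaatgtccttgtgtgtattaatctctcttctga
Emx2: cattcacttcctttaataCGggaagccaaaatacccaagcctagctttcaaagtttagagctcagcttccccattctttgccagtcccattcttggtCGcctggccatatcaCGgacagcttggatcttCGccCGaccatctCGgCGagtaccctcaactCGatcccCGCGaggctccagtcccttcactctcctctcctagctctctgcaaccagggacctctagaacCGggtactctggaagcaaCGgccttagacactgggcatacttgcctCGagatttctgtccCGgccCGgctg
Site in Gm34304: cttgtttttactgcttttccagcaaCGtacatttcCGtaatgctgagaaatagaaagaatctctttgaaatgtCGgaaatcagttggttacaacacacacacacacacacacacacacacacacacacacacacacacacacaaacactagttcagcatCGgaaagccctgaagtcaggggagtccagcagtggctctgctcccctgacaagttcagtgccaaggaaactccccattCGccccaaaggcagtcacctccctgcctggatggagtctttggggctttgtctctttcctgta
Gm27868: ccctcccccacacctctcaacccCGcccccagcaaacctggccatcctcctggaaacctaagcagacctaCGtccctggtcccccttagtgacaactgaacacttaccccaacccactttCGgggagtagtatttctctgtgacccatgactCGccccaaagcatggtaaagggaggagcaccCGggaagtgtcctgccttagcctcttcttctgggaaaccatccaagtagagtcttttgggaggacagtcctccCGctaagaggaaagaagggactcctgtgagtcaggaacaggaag
Hoxb2: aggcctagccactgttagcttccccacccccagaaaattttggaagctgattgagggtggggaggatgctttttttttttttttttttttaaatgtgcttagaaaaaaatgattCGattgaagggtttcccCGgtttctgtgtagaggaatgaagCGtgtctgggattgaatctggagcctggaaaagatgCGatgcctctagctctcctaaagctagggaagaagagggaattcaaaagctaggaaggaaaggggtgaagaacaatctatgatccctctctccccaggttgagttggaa
Alg2: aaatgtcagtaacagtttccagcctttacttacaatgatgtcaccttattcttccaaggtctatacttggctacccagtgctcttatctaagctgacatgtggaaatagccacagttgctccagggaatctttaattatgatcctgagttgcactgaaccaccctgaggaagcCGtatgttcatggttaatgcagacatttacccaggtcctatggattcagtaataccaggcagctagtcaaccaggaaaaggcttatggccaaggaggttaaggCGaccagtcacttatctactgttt
Site in Nhsl1: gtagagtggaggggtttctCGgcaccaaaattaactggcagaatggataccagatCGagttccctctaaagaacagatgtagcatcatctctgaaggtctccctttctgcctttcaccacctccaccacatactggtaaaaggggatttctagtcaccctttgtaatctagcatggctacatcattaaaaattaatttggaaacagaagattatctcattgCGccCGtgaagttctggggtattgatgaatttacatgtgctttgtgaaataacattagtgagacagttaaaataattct

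The 5 control peak lists held 22722 to 31200 H3K4me3 peaks each. Peaks covered 27.8, 39.9 and 43.6 Mb of the autosomes in telencephalon cultures 59, 60 and 61 and 37.5 and 37.0 Mb in brainstem cultures 59 and 61, that is 37.1 ± 8.23 Mb (SD, n = 3) against 37.2 ± 0.334 Mb (SD, n = 2). The difference, telencephalon minus brainstem, was -0.126 Mb (exact two-sided permutation test over 10 splits, p = 1, where the smallest p such a test can give is 0.2). The covered length of telencephalon culture 59 lay below that of both brainstem cultures, and those of telencephalon 60 and 61 lay above. Telencephalon culture 59 stood apart in enrichment too. At the 16491 promoters with a peak in all 5 controls, the median fold enrichment was 4.02 in this library, 68.0 and 53.3 in telencephalon 60 and 61, and 18.3 and 12 in brainstem 59 and 61. The Jaccard index, the shared covered length as a fraction of the joint covered length, was 0.745 between the brainstem cultures, 0.716 between telencephalon 60 and 61, 0.517 and 0.531 between telencephalon 59 and telencephalon 61 and 60, and 0.632 to 0.659 for the 6 pairs across regions. Without telencephalon 59, 871 promoters and 1950 distal sites had a telencephalon-only pattern, and 125 promoters and 643 distal sites a brainstem-only one, so this library limits the telencephalon-only list. Fold enrichment is therefore not on one scale across libraries. The rank by lowest fold still mixes libraries. Telencephalon 59 set it at 21 of 24 telencephalon-only promoters and at 57 of 74 telencephalon-only distal sites. A site without a peak may still hold signal under the threshold of the peak caller, and in these bulk cultures fewer cells with the mark and less of the mark per cell cannot be told apart.

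Peaks were counted at marker promoters of OPCs and other cell types. Neuron and astrocyte markers often had a peak too, so these counts do not settle the identity of the cells. All 17 OPC genes had a peak in every one of the 10 H3K4me3 libraries. Of 12 microglia markers, 11 had no peak in any control and at most 1 had a peak in a given control. Peaks were found at 2 to 4 of 9 endothelial markers and at 2 to 9 of 14 fibroblast and mural markers per control library, with 2 of each in telencephalon 59. Astrocyte markers with a peak numbered 6 to 10 of 12 and neuron markers 8 to 12 of 12. Schwann and neural crest markers with a peak numbered 5 to 7 of 8, and oligodendrocyte maturation genes 9 to 10 of 16. Their part in the differences between regions was not tested.

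Among promoters, defined as 2000 bases upstream to 1000 bases downstream of each annotated start, 24 of 21754 with a peak in at least 1 control were telencephalon-only (0.11%) and 44 were brainstem-only (0.202%). Just outside the rule, 120 promoters had a peak in all telencephalon cultures and in 1 brainstem culture, and 184 had one in both brainstem cultures and in 1 telencephalon culture. Another 871 promoters lacked 1 telencephalon culture and had no brainstem peak, and 294 lacked 1 brainstem culture and had no telencephalon peak. Protein-coding genes made up 14 of the 24 and 21 of the 44, against 76.3% of all promoters with a peak. At 9 of those 14 genes and 16 of those 21, another start of the same gene had a peak in all 5 controls, so most coding members were alternative starts of genes marked in both regions.

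**Figure D1:**
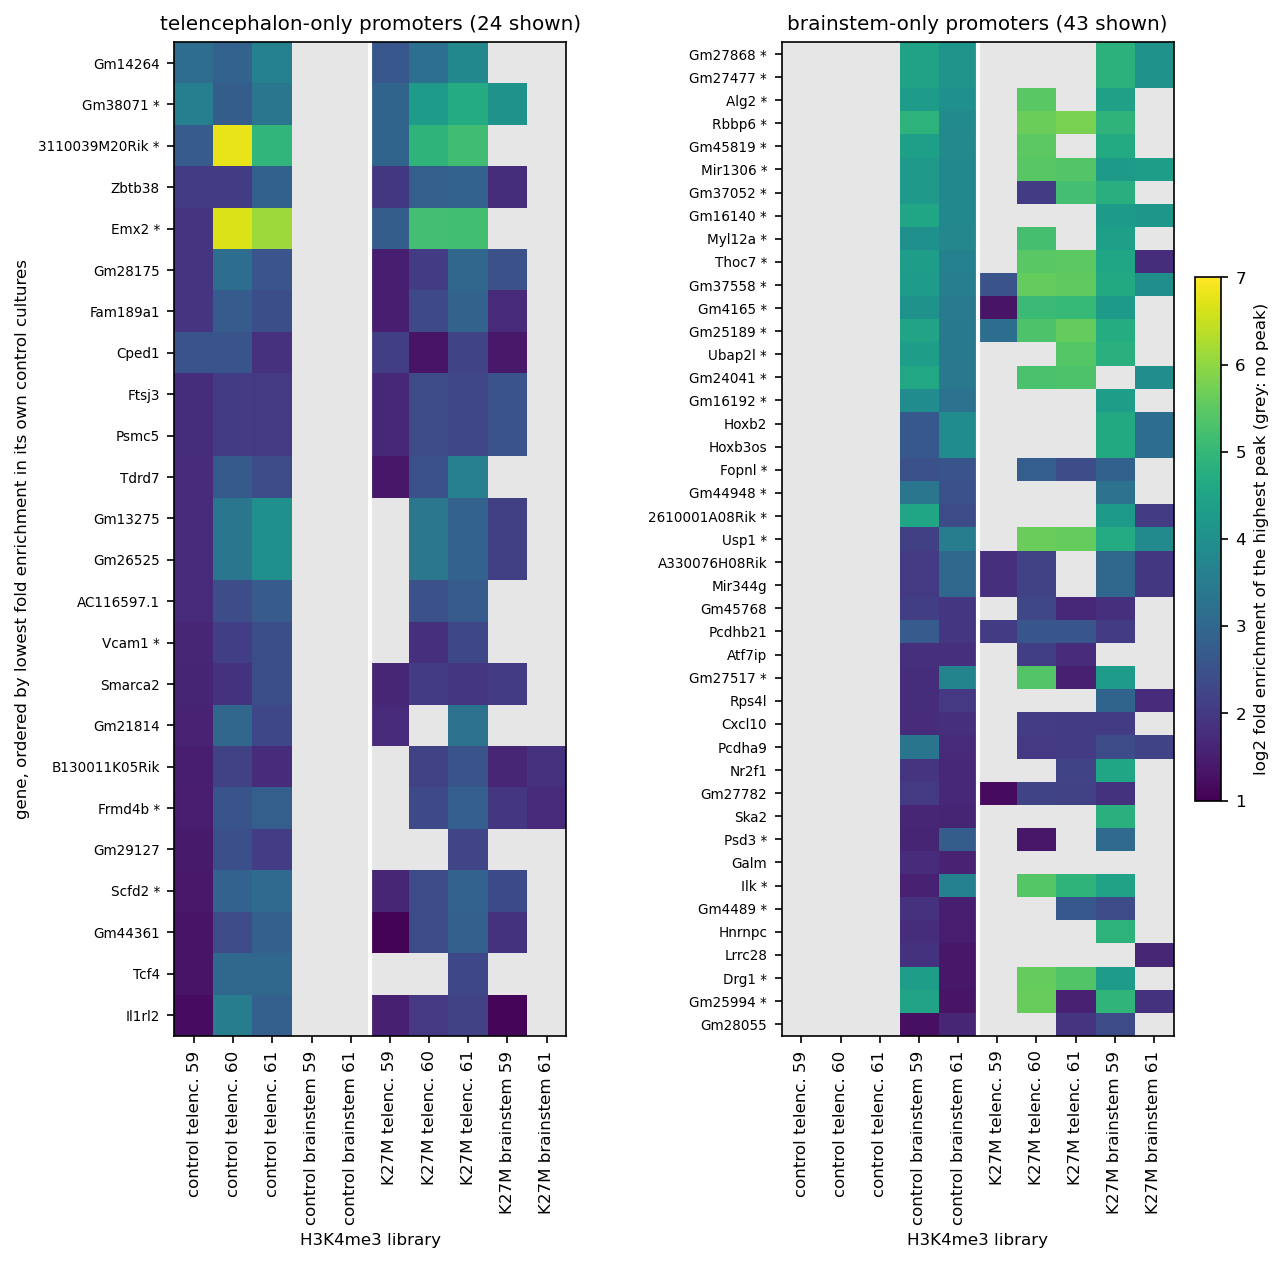
Fold enrichment over input, as log2 and by colour, of the highest H3K4me3 peak over each promoter (rows, ordered by the lowest fold in the own-region controls) in the 10 libraries (columns, controls left of the white line and K27M right of it), with grey for no peak. One brainstem-only promoter is left out. Asterisks mark promoters whose own peaks run into a peak of the other region. The blocks of grey in the controls follow from how the rows were chosen, while the K27M columns did not enter the choice. Of the 24 telencephalon-only rows, K27M brainstem 59 has a peak at 15 and K27M brainstem 61 at 2.

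By rank the telencephalon-only promoters were led by 3 noncoding starts, Gm14264, Gm38071 and 3110039M20Rik, followed by the coding genes Zbtb38 and Emx2. Gm14264, a lincRNA on chromosome 2 (promoter chr2:170661466-170664465), had a fold enrichment of 8.90, 7.42 and 12.4 in telencephalon controls 59, 60 and 61. No peak lay over it in the brainstem, where the nearest one was 22381 bases away. It also had peaks of 6.14, 9.08 and 14.0 in K27M telencephalon 59, 60 and 61, and none in the K27M brainstem. All 6 telencephalon libraries thus had a peak at Gm14264 and all 4 brainstem libraries had none.

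Emx2 encodes a homeobox factor of the dorsal telencephalon. The member was a second annotated start (chr19:59460802-59463801), which had a fold enrichment of 3.78, 102.6 and 69.1 in telencephalon controls 59, 60 and 61. The K27M telencephalon cultures had 6.82, 37.0 and 36.3, and neither K27M brainstem culture had a peak there. Over the whole gene the difference was one of extent, because another Emx2 promoter had peaks in both brainstem controls, of 12.1 and 3.87. The telencephalon peaks over the second start, merged over the cultures, covered 7527 bases and ran into a brainstem peak, and the nearest brainstem peak lay 1008 bases from the window.

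The lincRNA 3110039M20Rik was another noncoding start (chr12:49387652-49391658). Its promoter had a fold enrichment of 6.55, 110.8 and 31.1 in telencephalon controls 59, 60 and 61 and of 7.60, 30.1 and 35.8 in K27M telencephalon 59, 60 and 61. All 4 brainstem libraries were without a peak over this window. Its telencephalon control peaks ran into a brainstem control peak, and the nearest one lay 524 bases from the window. Of the remaining noncoding starts named by rank, Gm38071 (12.1, 6.82 and 10.2 in telencephalon controls) and Gm28175 (3.76, 9.06 and 6.02) both also had a peak in K27M brainstem 59, of 16.9 and 5.65. At Gm38071 the peaks covered only 207, 52 and 103 bases of the window in telencephalon controls 59, 60 and 61. They ran into a brainstem control peak, and the nearest one lay 146 bases from the window.

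Among the other coding members, Zbtb38, which encodes a zinc finger protein that binds methylated DNA, had 4.10, 4.18 and 7.27 in telencephalon controls 59, 60 and 61. Smarca2, which encodes the BRM ATPase of SWI/SNF chromatin remodelling complexes, had 3.10, 3.66 and 5.41. Vcam1, a cell adhesion molecule, had 3.12, 4.33 and 5.46, and its peaks continued into a peak of the brainstem 9 bases outside the window. Tdrd7, a tudor domain protein of RNA granules, had 3.37, 6.54 and 5.13 and kept the pattern in the K27M cultures with 2.63, 5.60 and 12.3 in the telencephalon. Fam189a1, Cped1, Gm13275, Frmd4b and Scfd2 completed the coding genes with the highest ranks together with Ftsj3 and Psmc5, which share 1 peak over overlapping windows. Their lowest control values were 2.66 to 3.73. Over all 24 the lowest fold enrichment had a median of 3.26 and ranged from 2.28 to 7.42, and telencephalon 59 gave the lowest value at 21 of them.

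The brainstem-only promoters were led by Hox cluster starts. Gm27868 and Gm27477, 2 short noncoding RNAs whose windows overlap Hotairm1 and Hoxa2, share 1 peak with a fold enrichment of 21.8 and 17.3 in brainstem controls 59 and 61. It had 29.0 and 16.7 in the K27M brainstem, and none of the 6 telencephalon libraries had a peak over either window (chr6:52160010-52163009 for Gm27868). The nearest telencephalon control peak lay 332 bases outside the window of Gm27868. The brainstem peaks over the window, merged over both cultures, covered 14873 bases.

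Hoxb2, a Hox factor of the anterior hindbrain, was the only one of 39 Hox genes with a peak in every brainstem control and in no telencephalon control. It had 6.25 and 15.0 in brainstem controls 59 and 61 and 24.9 and 9.04 in the K27M brainstem (promoter chr11:96348525-96352630). No telencephalon library of either genotype had a peak, and the nearest control one was 2414 bases away. The antisense gene Hoxb3os next to it carried the same peak. Pcdhb21 and Pcdha9, 2 of 57 clustered protocadherins, which give neurons and glia their cell surface codes, were brainstem-only with 6.63 and 3.83 and with 10.1 and 3.31. Both had peaks in K27M telencephalon 60 and 61, so their pattern was not seen in the K27M cultures.

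The peaks of most strong brainstem-only promoters ran into peaks of the telencephalon. The own peaks of 27 of the 44 ran into a peak of the telencephalon, against 6 of the 24 telencephalon-only promoters, and this held for all 16 with a lowest fold enrichment of at least 10. Those 27 had a median lowest fold of 10.7, while the 17 with separate peaks had 3.38. A telencephalon peak lay within 500 bases of the window in 24 of the 27, at a median distance of 111 bases over all 27, and 23 had either another promoter of the gene with a peak in all 5 controls or the coding start of another gene within 2500 bases. How much of the window was covered varied among the 27. Brainstem peaks covered 3000 bases, the whole window, of Gm27868 and Gm27477 in both brainstem controls. At Gm16140, named below, they covered 3002 and 2504 bases in brainstem 59 and 61. At others the brainstem peak only reached into the edge of a window that the telencephalon peak beside it did not reach.

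Alg2, a mannosyltransferase of N-glycan synthesis, illustrates such an edge, with 353 and 240 bases of the window covered in brainstem controls 59 and 61. An alternative start (chr4:47469771-47472770) had 19.6 and 16.2 in brainstem controls 59 and 61, and the nearest telencephalon control peak ended 87 bases away. K27M telencephalon 60 had a peak of 43.9 over the same window. Rbbp6, a ubiquitin ligase that binds RB, had 29.2 and 14.4, Myl12a, a myosin light chain, 16.0 and 13.6, Thoc7, a subunit of the THO complex of mRNA export, 20.4 and 12.4, and Ubap2l, an RNA-binding protein of stress granules, 20.4 and 10.7 in brainstem 59 and 61. Each of these 4 had a peak in K27M telencephalon 60 or 61. The noncoding starts Gm45819 (20.9 and 14.2) and Mir1306 (19.0 and 13.9) lay at Wee1 and Dgcr8, and their peaks also ran into telencephalon peaks.

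Lower in rank, Fopnl, Usp1, Atf7ip and Cxcl10 had a peak in both brainstem controls. Each of them also had a peak in K27M telencephalon 60 and 61, of 49.2 and 48.0 at Usp1. The peaks of Fopnl and Usp1 ran into a telencephalon control peak, with the nearest one 9 and 75 bases from the window. At Fopnl they covered only 34 and 12 bases of the window in brainstem controls 59 and 61. Usp1, a deubiquitinase of DNA repair, had 4.42 and 11.6, and Cxcl10, an interferon-induced chemokine, had 3.38 and 3.51. Cxcl10 carried H3K27me3 as well, in all 5 controls, with 6.86 and 2.71 in the brainstem and 2.21 to 6.68 in the telencephalon. Over the 44 promoters the lowest fold enrichment had a median of 4.83 and a range of 2.37 to 17.3.

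Whether the pattern held in libraries that did not choose the members was asked in the K27M cultures. Of all 21754 promoters with a peak in at least 1 control, 0.308% had a peak in all 3 K27M telencephalon cultures and in neither K27M brainstem culture, and 0.239% had the reverse. The same pattern was found at 4 of the 24 telencephalon-only promoters (16.7%, 95% Wilson interval 6.68 to 35.9%), which were Gm14264, 3110039M20Rik, Emx2 and Tdrd7. It was found at 7 of the 44 brainstem-only promoters (15.9%, 7.93 to 29.4%). These were Gm27868, Gm27477 and Hoxb2 and, outside the rule for naming and chosen after their values were seen, Hoxb3os, Gm16140, 2610001A08Rik and Rps4l. Gm16140 and 2610001A08Rik share a peak within Meis1, which encodes a homeobox partner of Hox proteins, with 23.4 and 13.9 at Gm16140 in brainstem controls 59 and 61, 19.2 and 18.03 in the K27M brainstem and none in the 6 telencephalon libraries. The intervals cover counting error only, and several of these starts share 1 peak. No promoter had the opposite pattern in the K27M cultures.

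The K27M libraries of one region differed from each other. Over all promoters with a peak in at least 1 control, 81.4%, 89.0% and 90.8% had a peak in K27M telencephalon 59, 60 and 61 and 89.5% and 81.9% in K27M brainstem 59 and 61. Peaks were found at 16, 21 and 24 of the 24 telencephalon-only promoters in K27M telencephalon 59, 60 and 61, at 15 in K27M brainstem 59 and at 2 in K27M brainstem 61. The brainstem-only promoters had 40 and 18 of 44 in K27M brainstem 59 and 61 and 8, 27 and 25 in K27M telencephalon 59, 60 and 61. K27M brainstem 59 thus had more of the telencephalon-only promoters than brainstem 61 had, and it had 29291 peaks in all against 20961. The effect of K27M itself on these sites and that of library strength cannot be told apart here. No K27M culture of the other region had a peak at 9 of the 24 and at 13 of the 44.

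**Figure D2:**
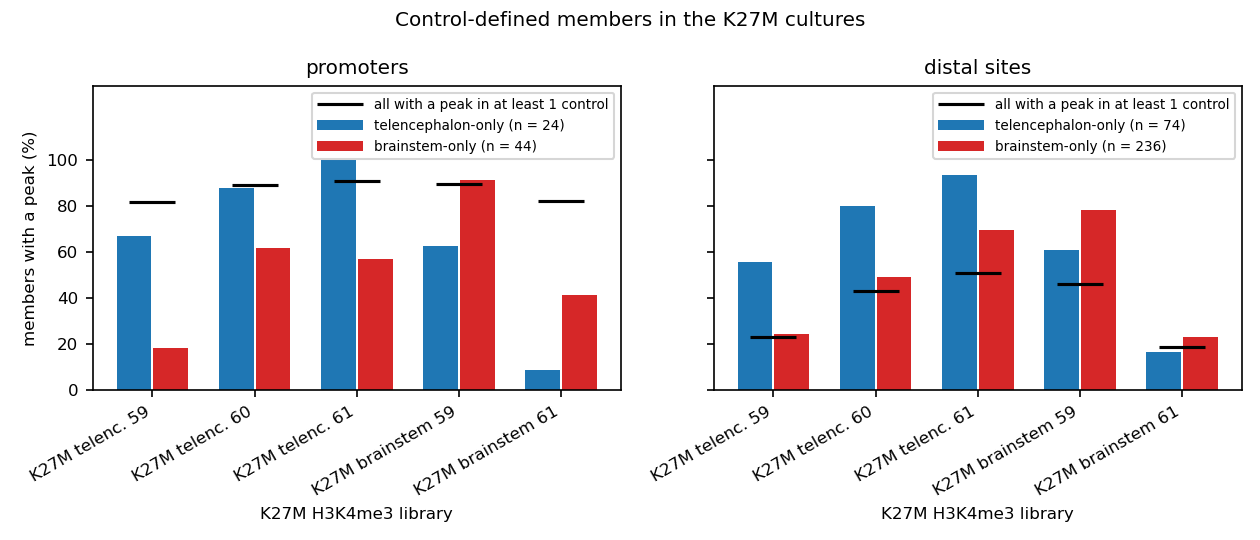
Share of the control-defined members (bars, percent) with an H3K4me3 peak in each of the 5 K27M libraries, for promoters (left) and distal sites (right), with a black line at the share of all promoters or distal sites that had a peak in at least 1 control. K27M telencephalon 59, 60 and 61 have a peak at 16, 21 and 24 of 24 telencephalon-only promoters, and K27M brainstem 59 and 61 at 15 and 2.

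Distal sites are merged control peaks that touch no promoter window. Of 21298 such sites, 11430 had a peak in exactly 1 control and 1877 in all 5, while 74 were telencephalon-only (0.347%) and 236 brainstem-only (1.11%). The 2 directions need 3 and 2 cultures, so their counts are not on one scale. A further 216 sites had all telencephalon cultures and 1 brainstem culture, and 691 both brainstem cultures and 1 telencephalon culture. The 74 fell in 9 exons, 28 introns and 37 intergenic stretches, and the 236 in 26 exons, 161 introns and 49 intergenic stretches. Their median lengths were 836 and 608 bases, against 1471 for the sites with a peak in all 5 controls. Values were low in both directions, with a median lowest fold enrichment of 3.09 in the 74 and 3.04 in the 236.

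The telencephalon-only distal sites included 1 close to a homeobox gene of the forebrain. The highest-ranked one (chr12:49373969-49379216) lies in an intron of Gm34304 and had 7.25, 24.0 and 16.7 in telencephalon controls 59, 60 and 61. The K27M telencephalon cultures had 8.84, 12.7 and 35.8 there, and the 4 brainstem libraries none. A site in an intron of Ehbp1 (chr11:22007943-22009136), 5046 bases from the start of the homeobox gene Otx1, had 5.74, 5.22 and 4.84, and 5.11, 11.3 and 40.6 in the K27M telencephalon. Otx1 itself had a peak in all 10 libraries, for example 11.9 and 10.3 in the brainstem controls. Between these in rank were an intergenic site at chr3:154646918-154647775 (7.20, 5.94 and 10.6), an exonic one in Atp7b, a copper transporter (chr8:22012780-22013838, 5.58, 6.86 and 17.7), and intergenic ones at chr10:91249498-91250223 (5.47, 5.92 and 5.72) and chr18:39900796-39901716 (7.20, 5.06 and 8.69). The first 2 of these 4 had the same pattern in the K27M cultures.

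The first brainstem-only distal site by rank, in an intron of Nhsl1 (chr10:18462086-18464487), had 10.0 and 7.19 in brainstem controls 59 and 61. A telencephalon control peak lay 193 bases from it, and all 5 K27M libraries had a peak there, of 5.13 to 9.98. The next were in an intron of Cpeb1, a regulator of mRNA translation (chr7:81420718-81421151, 5.01 and 5.13), in an exon of B930025P03Rik (chr8:10871515-10872278, 5.18 and 4.51), between genes at chr11:18748446-18748906 (4.47 and 4.51), in an intron of Ston1 (chr17:88652561-88653314, 4.89 and 4.42) and between genes at chr5:60302858-60303550 (5.13 and 4.33). None of these 6 had the same pattern in the K27M cultures, and K27M brainstem 61 had a peak at the first alone. Members gathered little: within 50000 bases of each other they formed 94 telencephalon-only and 265 brainstem-only loci, and the largest held 4 sites in introns of Qk, which encodes an RNA-binding protein of oligodendrocytes and is named after its values were seen. Those 4 had 2.65 to 3.90 in the brainstem controls.

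Of all distal sites, 1.18% had the telencephalon-only pattern in the K27M cultures and 0.404% the brainstem-only one. The pattern returned at 10 of the 74 telencephalon-only sites (13.5%, 95% Wilson interval 7.51 to 23.1%) and at 4 of the 236 brainstem-only sites (1.69%, 0.661 to 4.28%). Peaks were present at 41, 59 and 69 of the 74 in K27M telencephalon 59, 60 and 61 and at 45 and 12 in K27M brainstem 59 and 61. Of the 236 brainstem-only sites, 184 and 54 had a peak in K27M brainstem 59 and 61, and 57, 116 and 164 in K27M telencephalon 59, 60 and 61. Over all distal sites with a peak in at least 1 control, the shares were 22.9%, 43.0% and 50.9% in K27M telencephalon 59, 60 and 61 and 45.8% and 18.7% in K27M brainstem 59 and 61. K27M telencephalon 61 thus had the largest share and K27M brainstem 61 the smallest over all sites as well, before any choice by region.

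H3K27me3, which the choice of members did not use, was examined at the same places. No H3K27me3 peak was found in any control at 16 of the 24 telencephalon-only promoters and 36 of the 44 brainstem-only promoters, beside 67.0% of all promoters with an H3K4me3 peak in at least 1 control. Among all promoters with an H3K4me3 peak in at least 1 control, 28.2% and 18.3% had an H3K27me3 peak in brainstem 59 and 61 and 11.6%, 25.6% and 27.8% in telencephalon 59, 60 and 61. For the telencephalon-only promoters the brainstem shares were 25% and 12.5%, and the telencephalon shares 4.17%, 12.5% and 8.33%. For the brainstem-only promoters they were 6.82% in each brainstem control and 13.6%, 15.9% and 15.9% in the telencephalon.

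A full exchange of the marks, with H3K27me3 in every control of the other region and in none of the own, was found at 1 telencephalon-only and 3 brainstem-only promoters. Of all promoters with an H3K4me3 peak in at least 1 control, 38 (0.175%) had H3K27me3 in both brainstem controls and in no telencephalon control, and 31 (0.143%) had the reverse. Gm27868 and Gm27477 share 1 peak, so the 3 brainstem-only promoters stand for 2 loci. At 3110039M20Rik the H3K27me3 fold enrichment was 9.37 and 9.62 in brainstem controls 59 and 61, with no peak in the telencephalon controls. At Gm27868 and Gm27477 it was 5.18, 19.6 and 11.6 in telencephalon controls 59, 60 and 61, with no peak in the brainstem controls. The third was Gm44948 near Nr2f2, named after its values were seen, with 4.17, 14.0 and 10.1 in the telencephalon controls. In the K27M cultures H3K27me3 was called in every culture of the other region at these promoters. It was 25.7 and 33.2 in K27M brainstem 59 and 61 at 3110039M20Rik. In K27M telencephalon 59, 60 and 61 it was 11.0, 27.2 and 31.8 at Gm27868 and Gm27477 and 9.17, 21.6 and 25.5 at Gm44948. None of the exchanges was complete, because H3K27me3 was also called in some K27M cultures of the own region. 3110039M20Rik also had H3K27me3 of 2.91 and 8.30 in K27M telencephalon 59 and 60. Gm27868 and Gm27477 had 27.3 in K27M brainstem 61, and Gm44948 had 2.94 there, while none of them had a peak in K27M brainstem 59. In the controls Emx2 came close, with 7.74 and 8.97 in the brainstem and a peak of 2.82 in telencephalon 60 alone. Hoxb2 differed, since H3K27me3 was called in all 5 controls, with brainstem values of 8.02 and 2.82 and telencephalon values of 4.64, 16.0 and 8.24. No distal member had such an exchange, beside 0.117% of all distal sites with H3K27me3 in both brainstem controls and in no telencephalon control and 0.193% with the reverse.

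At the distal members, 58 of the 74 and 217 of the 236 had no H3K27me3 peak in any control, beside 85.7% of all distal sites. Over all distal sites, H3K27me3 was called at 10.2% and 6.14% in brainstem 59 and 61 and at 4.29%, 10.3% and 10.1% in telencephalon 59, 60 and 61. For the telencephalon-only sites the brainstem shares were 13.5% and 4.05%, and those of telencephalon 59, 60 and 61 were 5.41%, 14.9% and 18.9%. For the brainstem-only sites the brainstem shares were 4.24% and 2.97%, and the telencephalon ones 1.69%, 5.08% and 3.81%, below those of all distal sites in each of the 5 controls.

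Lists of regional patterning genes were counted over all starts of a gene. Hox genes with an H3K4me3 peak numbered 16 and 20 of 39 in brainstem controls 59 and 61 and 2, 29 and 29 in telencephalon controls 59, 60 and 61. K27M telencephalon 59, 60 and 61 had 2, 5 and 6 of them, and K27M brainstem 59 and 61 had 22 and 19. Telencephalon controls 60 and 61 thus had peaks at more Hox genes than either brainstem control, and 9 Hox genes had a peak in telencephalon 60 and 61 and in no brainstem control. Their fold enrichment in telencephalon 60 and 61 was mostly low for these libraries, such as 3.82 and 4.07 at Hoxa10 and 4.90 and 6.53 at Hoxc9, beside medians of 68.0 and 53.3 at the promoters shared by all controls. By pattern, 2 Hox genes had a peak in all 5 controls, 4 in none, 1 in the brainstem only and 32 in another combination.

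Telencephalon patterning factors had peaks at 14, 23 and 24 of 25 in telencephalon 59, 60 and 61 and at 21 and 17 in brainstem 59 and 61. Of these, 12 had a peak in all 5 controls and 1 in none, and no gene was telencephalon-only over all its starts. Midbrain and hindbrain patterning factors had 19, 39 and 40 of 42 in the telencephalon and 37 and 31 in the brainstem, with 19 in all 5 and 2 in none. Of 9 ventral forebrain factors, 5 had a peak in all 5 controls. Of the telencephalon patterning factors, 15, 22 and 22 had a peak in K27M telencephalon 59, 60 and 61, and 13 and 10 had one in K27M brainstem 59 and 61. Among the controls, telencephalon 59 had the lowest count in each of these 4 lists.

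**Figure D3:**
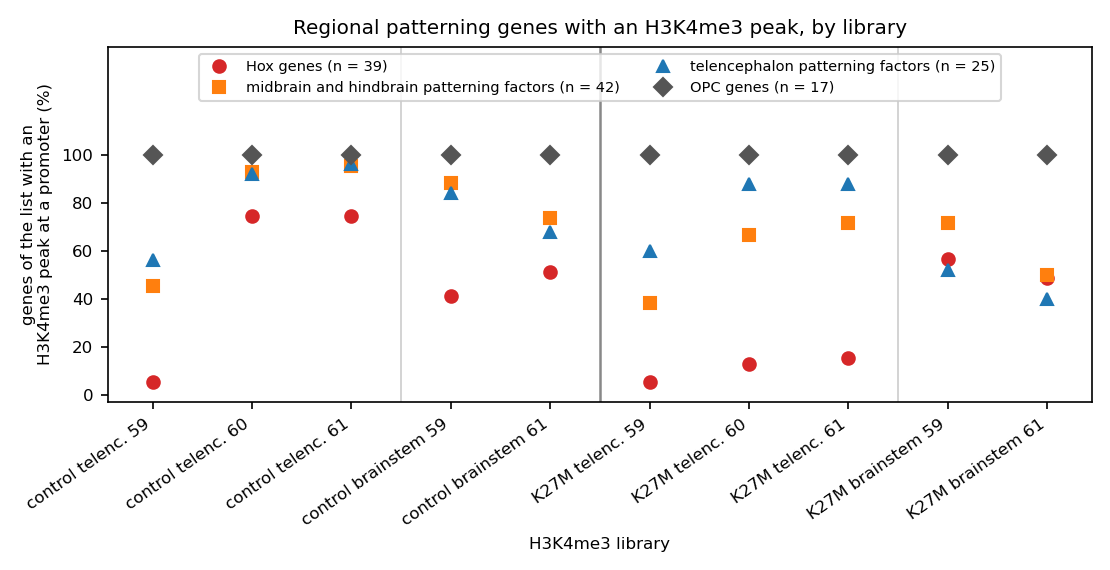
Share of the genes of each list with an H3K4me3 peak at a promoter (percent, vertical axis) in the 10 libraries (horizontal axis), for Hox genes, midbrain and hindbrain factors, telencephalon factors and OPC genes. OPC genes are at 17 of 17 in every library, and Hox genes fall from 29 of 39 in control telencephalon 60 and 61 to 5 and 6 in the K27M cultures of the same numbers.

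The members were poorer in CpG than other promoters with a peak. The median density was 1.599 CpG per 100 bases in the telencephalon-only and 0.867 in the brainstem-only promoters, against 2.85 for promoters with a peak in at least 1 control and 3.19 for those with a peak in all 5. Among distal sites it was 2.203 in the telencephalon-only and 1.01 in the brainstem-only, against 1.42 overall and 2.27 in the sites with a peak in all 5. The stretches printed for Emx2 and Alg2, with 15 and 2 CpG in 300 bases, lie at either end of the promoters shown.

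**Figure D4:**
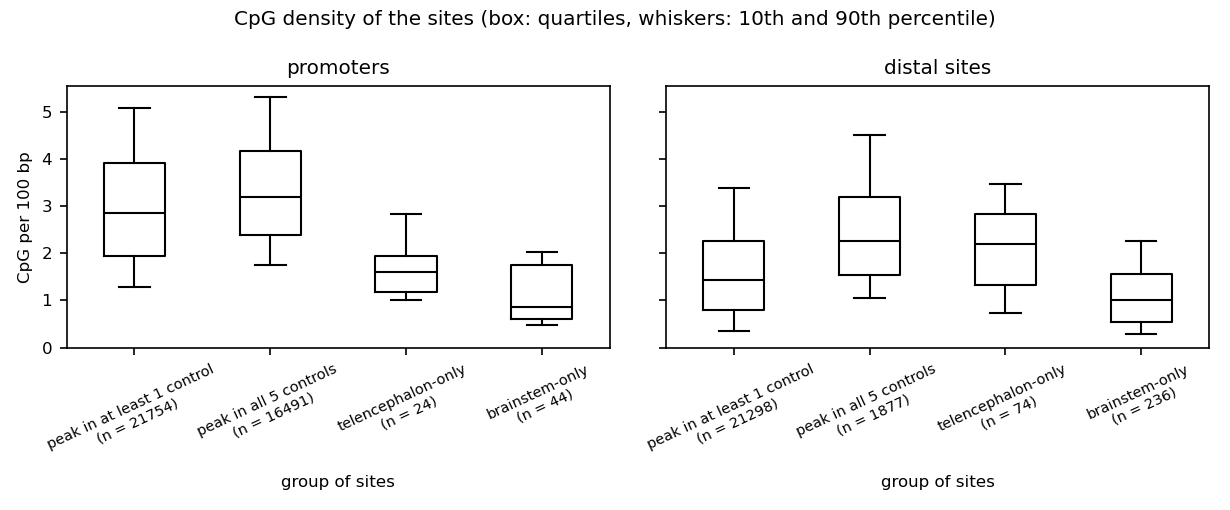
CpG dinucleotides per 100 bases of promoters (left) and distal sites (right) by pattern of control peaks, with boxes for the quartiles, a line for the median and whiskers for the 10th and 90th percentiles. Brainstem-only promoters and distal sites have the lowest medians, 0.867 and 1.01.

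Short motifs were counted on both strands in the 500 bases around the centre of each distal site, as a description. TAATTA, a core bound by many homeodomain factors, was in 28.4% of the 74 telencephalon-only and 17.4% of the 236 brainstem-only sites, against 12.7% of all distal sites. TGATTNAT, a joint site of HOX and PBX factors, was in 10.8% and 13.6%, against 6.29%. ACAATG, a core bound by SOX factors, was in 12.2% and 31.4%, against 23.1%. The E-box CAGCTG was in 27.03% and 29.7%, against 31.4%, and the TATA box TATAAA in 28.4% and 33.5%, against 21.9%. The GC content of these windows had medians of 47.3% and 44.2%, against 48.8%. None of these motifs contains another, and a site may hold several.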

How the data were processed

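H3K4me3 and H3K27me3 peak lists of 20 libraries were used, 10 per mark. Read totals and input reads were not used here, so depth enters only through the peak calls. Per the labels and the methods, the authors trimmed reads with Trim Galore (0.6.7), aligned them to mm10 with BWA (0.7.17-r1188) and called peaks with MACS2 (2.2.7.1) in each library against its own input, without pooling and without the Drosophila spike-in. Of the deposited columns, fold enrichment (a ratio of pileup to input as MACS2 computed it for the authors) was the value used. The −log10 p and −log10 q that the authors deposited served only to filter or rank peaks in alternatives, and the deposited score was not used here. The authors' peak calling was set to keep duplicate reads, and whether any had been removed before that step was not examined. Blacklisted regions were removed.

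Promoters came from GENCODE M21 (134417 transcripts of 51229 autosomal genes), whose assembly GRCm38 is that of mm10. Overlapping windows of one gene were merged into 71683 promoters. Distal sites are the merged control H3K4me3 peaks that touch no promoter window. Chromosomes X and Y were left out, because the sexes were pooled. A peak counts with an overlap of at least 1 base, and a library's value is its highest peak over the site, set to 0 where there is none. The nearest peak of the other region was measured to the window. Sequences and CpG counts were read from RefSeq's copy of GRCm38.

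The only test is an exact permutation test of covered length over whole libraries, since peak lists hold no counts for a test by region. Named were, in each direction, the 12 protein-coding and 4 other genes and the 6 distal sites ranked highest, and members of the gene lists. Some genes covered by this rule or beside members are not reported here. The members and lists were chosen with earlier results of these data known. The alternative that keeps members with separate peaks only was chosen after seeing the data. The code for presence calls was run on simulated data: all 142 planted region-only promoters among 3000 were found and 0 others called. Every planted peak overlapped its window and stray peaks lay outside all windows. The run therefore checked the code only, not peak edges or weak libraries. Python 3.11.15, numpy 2.4.6, pandas 2.3.3, scipy 1.17.1 and matplotlib 3.10.9 were used.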

Additional observations from a re-analysis of the deposited data

Results flagged for a closer look

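A brainstem-only distal site in introns of Fgfr2 and Tacc2 (chr7:130732324-130732801) had the opposite pattern in the K27M cultures. Its fold enrichment was 2.68 and 2.85 in brainstem controls 59 and 61, with no peak in the 3 telencephalon controls. In the K27M cultures it was 2.09, 3.47 and 3.87 in telencephalon 59, 60 and 61, with no peak in the brainstem. It was singled out because every library of one genotype goes one way and every library of the other the opposite way, and the difference was not tested. It was 1 of 236 brainstem-only distal sites, all its values are low, and a telencephalon control peak lay 113 bases away.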

How the results depend on the processing

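Each count and share was recomputed under stricter peaks, equal numbers of peaks, other windows, overlaps and definitions of absence, coding genes only and left-out cultures. Of 117 alternatives over 9 results, 79 stayed the same, 36 moved further and 2 changed sign. The same means within 1.5 times the count, within the interval of the share or on the same side of 0 for covered length. The tally holds entries that are not separate checks. The replicate block described below uses the same libraries as leaving out telencephalon 60, so it repeats that setting for every result. Keeping separate peaks only could not change the distal results, because distal sites are merged over all controls. Coding genes only gave 14 telencephalon-only and 21 brainstem-only promoters, of which 4.76% of the latter had the same pattern in the K27M cultures. With no peak of the other region allowed within 2000 bases, brainstem-only promoters fell to 13 (38.5% with the K27M pattern) and distal sites to 123. With separate peaks only, 17 brainstem-only promoters remained. Equal numbers of peaks left 32 telencephalon-only distal sites, and the shares with the K27M pattern were then 38.1% for telencephalon-only promoters, 25% for telencephalon-only and 4.28% for brainstem-only distal sites.

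Leaving out 1 control culture gave 31 to 871 telencephalon-only and 66 to 191 brainstem-only promoters, and 109 to 1950 and 268 to 1850 distal sites. The highest telencephalon-only counts came without telencephalon 59, and the highest brainstem-only ones without either brainstem culture, where fewer cultures define the pattern. The shares with the K27M pattern then ranged from 1.84 to 19.4% and 4.71 to 10.6% for promoters and from 1.28 to 16.5% and 0.622 to 2.43% for distal sites. The covered length difference ranged from -3.36 to 4.51 Mb and was 0.111 Mb without brainstem 59. It was 4.51 Mb without telencephalon 59 (exact permutation test, p = 0.333). That is the smallest p the test can give with this culture left out, so it cannot decide the question.

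As a replicate block, the controls were restricted to cultures 59 and 61 of both regions, which are the libraries left without telencephalon 60. Telencephalon-only promoters then numbered 41 and distal sites 234. Brainstem-only promoters numbered 66 and distal sites 268, and the covered length difference was -1.52 Mb. Leaving out telencephalon 60 gave the same values. Whether cultures of the same number pair across regions could not be decided. Deviations of peak presence from the group means correlated at -0.0982 for cultures 59 and -0.0781 for cultures 61, across promoters. With 2 brainstem cultures the deviation of one mirrors that of the other, so telencephalon 59 correlated at 0.0982 with brainstem 61. The cause of the shifts in these counts was not tested beyond the number of cultures used.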

Other observations

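Ftsj3, an rRNA methyltransferase, and Psmc5, an ATPase of the proteasome, share a divergent promoter region on chromosome 11 that had no H3K4me3 peak in either brainstem control within 30764 bases of the Ftsj3 window. The telencephalon controls had a single narrow peak there, with 3.45, 4.18 and 4.04 in cultures 59, 60 and 61, and the K27M cultures 3.24, 5.19 and 4.87 in the telencephalon and 5.77 and none in the brainstem. Both genes are used by every cell, and promoters with a peak in all 5 controls had medians of 68.0 and 53.3 in telencephalon 60 and 61. The values here were low in every library with a peak, and a missing peak does not show that the region is unmarked in the brainstem. The authors removed reads over blacklisted regions before peak calling, and whether that touched this stretch was not tested.

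Nr2f1, an orphan nuclear receptor, was outside the rule for naming and was chosen after its values were seen. An alternative start (chr13:78189444-78192443) had 3.83 and 3.25 in brainstem controls 59 and 61 and 23.1 in K27M brainstem 59. K27M brainstem 61 had no peak there, and K27M telencephalon 61 had one of 4.73. H3K27me3 was called there in no control and in all 3 K27M telencephalon cultures, at 5.02, 7.51 and 7.82. Tcf4, a bHLH partner of oligodendrocyte factors, likewise chosen afterwards, had an alternative start with 2.48, 8.02 and 7.96 in the telencephalon controls and 4.96 in K27M telencephalon 61 alone among the K27M cultures.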
